A study of Capra hircus with 12 samples.

Results

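The genes described here are 6 genes of pain signaling, namely BDNF, NTF3, NGFR, BDKRB1, BDKRB2 and P2RY2. They were taken by gene name from the 28910 genes of the goat count tables. BDNF, NTF3, NGFR, BDKRB1 and BDKRB2 were chosen as neurotrophin and bradykinin genes. P2RY2 was picked because the LOXL2 effect on it was unequal in the cartilage layers, so its effects are given as a description with no test.

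The measurements were RNA-seq read counts from cultured cells of the temporomandibular joint (TMJ, the jaw joint) of goats. Per the study's methods, the animals were females of 6 to 9 months obtained from abattoirs, and the cells were used at passages 3 to 5. Cells of the superficial layer cartilage (SLC) and of the medial layer cartilage (MLC) of the condyle were cultured separately. All 12 libraries came from cells given IL-1β, an inflammatory cytokine that is used to model osteoarthritis, at 10 ng for 1 h. In 6 of them the cells had also been transduced overnight with an adenovirus carrying LOXL2, a lysyl oxidase-like enzyme that cross-links collagen. This gave 4 groups of 3 libraries each, SLC with IL-1β, SLC with IL-1β+LOXL2, MLC with IL-1β and MLC with IL-1β+LOXL2. The methods name an empty adenovirus in the flow cytometry cultures and do not say whether the sequenced cells given IL-1β alone received it, so an effect of LOXL2 and one of the adenovirus cannot be told apart. Vehicle-treated cells were not analysed here, so no value below is an effect of IL-1β. The labels do not say whether the 3 libraries of a group came from separate cultures or animals. The p-values then measure the spread between these libraries, which may be technical.

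Neurotrophins are secreted growth factors of sensory neurons. BDNF and NTF3 act mainly through the receptor tyrosine kinases NTRK2 and NTRK3, and NGFR (also called p75) binds all neurotrophins and their uncleaved precursors. Bradykinin and its cleaved forms sensitize pain fibers through 2 G protein-coupled receptors, BDKRB2, which is present in most tissues at rest, and BDKRB1, which is low at rest and is induced by inflammatory cytokines such as IL-1β. P2RY2 is a G protein-coupled receptor for extracellular ATP and UTP, which cartilage cells release under load, and like the kinin receptors it signals through Gq and calcium.

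The libraries held between 14158607 and 28931652 counts in genes, and the MLC libraries with IL-1β were the shallowest, at 14158607 to 15330697. One library stood apart from its group: for SLC with IL-1β+LOXL2 replicate 1, the chi-square per degree of freedom against the other replicates was 169.2 and 62, where pairs in the other groups lay between 2.295 and 35.98. Results that rest on it are given with and without it. Counts of the LOXL2 gene itself were not higher in the LOXL2 libraries, with means of 621.8 ± 9.86 and 521.4 ± 55.8 CPM (counts scaled to a common library total; SD, n = 3) in SLC without and with LOXL2, and 819.5 ± 54.3 and 784.2 ± 37.7 in MLC. The goat LOXL2 count therefore does not check the labels, the groups are given as labelled, and whether the transgene's reads could align to the goat gene was not stated in the sources used here. The cells carried fibroblast markers at a summed 64156 to 78000 CPM and chondrocyte markers at 748 to 1915. Of the chondrocyte markers, ACAN lay at 29.4 to 54.3 CPM in SLC and 308 to 435 in MLC. SOX9 lay at 13.8 to 22.1 CPM in SLC and 71.7 to 92.8 in MLC. COL11A1 lay at 603 to 1290 CPM over all libraries, COMP at 59.2 to 175 and HAPLN1 at 4.52 to 24.9. COL2A1 reached at most 0.0456 CPM in SLC and lay at 10.4 to 20.8 in MLC. COL9A1 reached at most 0.037 CPM in SLC and lay at 11.5 to 19.4 in MLC. COL9A2 and MATN3 reached at most 0.361 and 0.599 CPM, and MATN1 was at 0 in every library. In bulk RNA, fewer cells of a type and less RNA per cell cannot be told apart.

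Of the 6 genes, 3 were counted well and 3 were barely counted, meaning fewer than 10 counts in every library. NTF3 had 0 counts, NGFR 21 counts and BDNF 34 counts summed over the 12 libraries, out of 229864912. BDKRB2 had 818, BDKRB1 2092 and P2RY2 5405. BDNF, NTF3 and NGFR did not pass the filter on low counts in any comparison and were therefore not among the genes tested below. Levels are compared here within a gene only, since transcript lengths were not used.

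**Figure D1:**
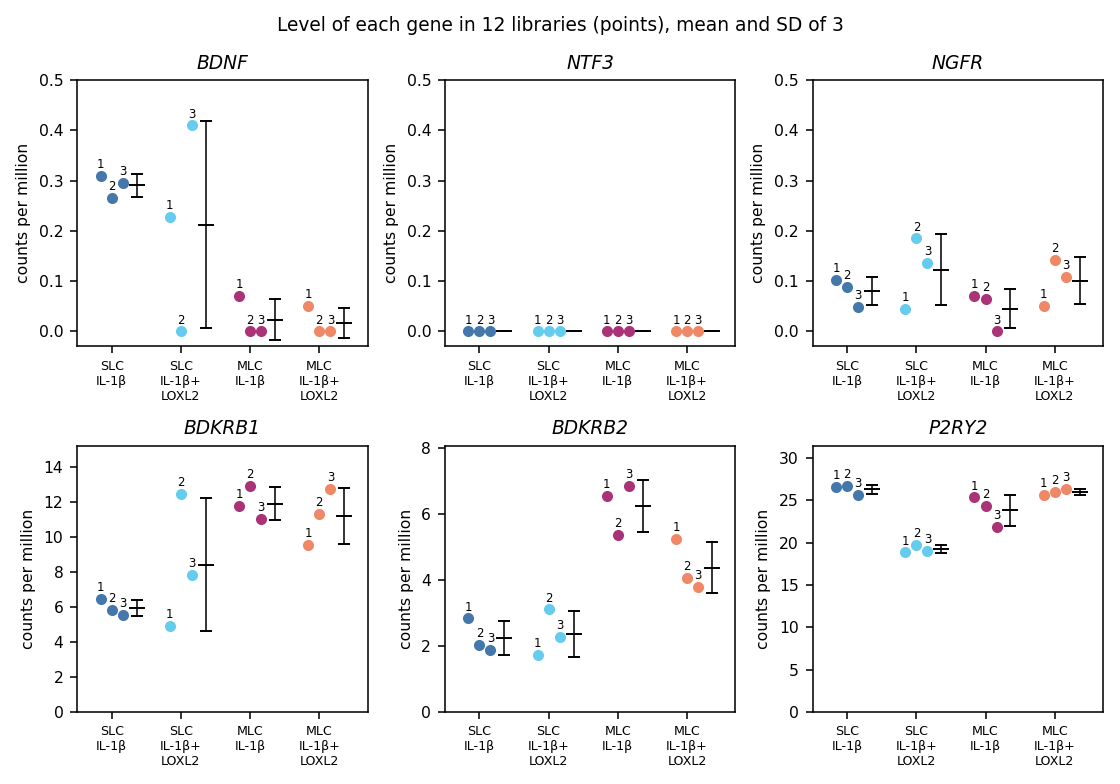
Level in CPM (vertical axes, linear, with a separate scale for each gene) of the 6 genes in 4 groups (horizontal axis). Each point is 1 library with its replicate number, and the bar beside it is the mean with the SD of 3. NTF3 lay at 0 throughout, BDNF and NGFR stayed below 0.5 CPM, both kinin receptors were higher in MLC than in SLC under IL-1β, and P2RY2 was lowest in the SLC libraries with LOXL2.

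The ligand NTF3, a survival factor of proprioceptive neurons, was not detected in SLC or MLC. A count of 0 over all libraries allows a level of up to 0.0131 CPM, taking 3 counts as the floor and covering counting error only. Its annotated span, chromosome 5 from 103662256 to 103739333 in assembly ARS1.2, also holds a transfer RNA gene, TRNAR-CCU, of 72 bases.

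BDNF, the neurotrophin that sensory neurons release onto spinal pain circuits, was counted almost only in SLC. The gene lies on chromosome 15 from 24503955 to 24565888. In SLC with IL-1β it had 6, 6 and 6 counts in replicates 1, 2 and 3, and with IL-1β+LOXL2 it had 5, 0 and 9. In MLC it had 1, 0 and 0 counts with IL-1β and again 1, 0 and 0 with IL-1β+LOXL2. All 3 SLC libraries with IL-1β lay above all 3 MLC libraries with IL-1β. That held for 27.8% of the genes tested there, among which BDNF was not. SLC with IL-1β+LOXL2 replicate 2, the most deeply sequenced library of all, had no BDNF counts. Summed over libraries, 32 counts in SLC against 2 in MLC gave a ratio of CPM of 11.6, with a 95% counting interval of 2.96 to 99.8. The mean level was 0.231 CPM lower in MLC (exact permutation test of the layer labels within each treatment, two-sided p = 0.02, adjusted over 3 such tests p = 0.0525, where the smallest p that the 400 arrangements can give is 0.005). This test was added after the counts had been seen, so its p-values are no independent support for the difference. Without any 1 library the exact permutation p lay between 0.005 and 0.02. It was 0.025 with the labels of the LOXL2 libraries exchanged only within same-numbered pairs, and those under IL-1β exchanged freely. In the LOXL2 pairs alone, MLC was lower in 2 of 3 (exact permutation p = 0.5), and the other pair had no counts. The group totals in SLC, 18 counts with IL-1β and 14 with LOXL2, gave a ratio of CPM of 0.682 with an interval of 0.314 to 1.45, so a difference with LOXL2 was not detectable at this depth.

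NGFR, the shared low-affinity neurotrophin receptor, was at the limit of detection in both layers. It lies on chromosome 19 from 36738145 to 36757801. Its counts in replicates 1, 2 and 3 were 2, 2 and 1 in SLC with IL-1β, then 1, 5 and 3 with IL-1β+LOXL2. In MLC they were 1, 1 and 0 with IL-1β and 1, 2 and 2 with IL-1β+LOXL2. The counts of all 4 groups overlapped. SLC held 14 counts and MLC 7, a ratio of CPM of 1.45 with an interval of 0.547 to 4.24 that includes equal levels.

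BDNF, NTF3 and NGFR are also made by Schwann cells and neurons, so the markers of these cells were counted in the same libraries. Of 9 Schwann cell markers CDH19 was at 0 in every library, and SOX10 and ERBB3 had at most 5 counts in any of them. The summed level of the Schwann list was 59.1 to 69.7 CPM in SLC and 112.2 to 136.5 in MLC, and S100B, which chondrocytes also make, accounted for 33.3 to 42.8 CPM in SLC and 85.9 to 111.1 in MLC. Of 10 neuron markers ELAVL4 and PRPH were at 0 in every library, and the list summed to 7.04 to 10.6 CPM, with overlapping ranges in SLC and MLC. SNAP25 was counted in every library, at 5.63 to 9.35 CPM. STMN2 reached 31 counts and SYT1 20, and ELAVL3, RBFOX3, NEFL, NEFM and ISL1 had at most 2. The part of these cells in the BDNF values was not tested.

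The kinin receptors BDKRB1 and BDKRB2 are neighbors on chromosome 21, and their annotated spans overlap. BDKRB1 runs from 60447662 to 60482360 and BDKRB2 from 60423475 to 60454764, so that 7103 bases belong to both. The strand setting of the counting is not given in the sources used here, and reads in the shared stretch could have been left out or given to either gene, so the split of counts between both receptors is uncertain.

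BDKRB1, the receptor for bradykinin lacking its last arginine, was more abundant in MLC than in SLC under IL-1β. In SLC with IL-1β it had 6.45, 5.81 and 5.53 CPM in replicates 1, 2 and 3, from 112 to 131 counts. In MLC with IL-1β it had 11.8, 12.9 and 11.04 CPM, from 166 to 197 counts, and the groups did not overlap. With IL-1β+LOXL2 the SLC libraries spread from 4.92 CPM in replicate 1 over 7.84 in replicate 3 to 12.4 in replicate 2. The MLC libraries with IL-1β+LOXL2 had 9.54, 11.3 and 12.7 CPM, so that SLC replicate 2 lay among them. The 4 group means were 5.93 ± 0.475, 8.40 ± 3.79, 11.9 ± 0.929 and 11.2 ± 1.60 CPM (SD, n = 3). The SD in SLC with LOXL2 was the widest of the 4.

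BDKRB2, the receptor for intact bradykinin, was also more abundant in MLC. In SLC it had 2.84, 2.04 and 1.87 CPM with IL-1β and 1.73, 3.11 and 2.28 with IL-1β+LOXL2, and these 2 groups overlapped. In MLC it had 6.55, 5.36 and 6.85 CPM with IL-1β and 5.26, 4.08 and 3.79 with IL-1β+LOXL2. With either treatment all 3 MLC libraries lay above all 3 SLC libraries, as they did for 28.1% of the genes tested under IL-1β and 18% with IL-1β+LOXL2. Every MLC library with LOXL2 lay below every MLC library without it, which held for 20.5% of the genes tested in MLC. The means were 2.25 ± 0.516, 2.37 ± 0.694, 6.25 ± 0.786 and 4.38 ± 0.778 CPM (SD, n = 3) in the same order as above.

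Under IL-1β both kinin receptors were higher in MLC than in SLC. Of 13965 genes tested, 46.9% passed an adjusted p of 0.05 in either direction and 24.2% were higher in MLC. The log2 fold change of BDKRB1 was 1.01 (SE 0.124, 95% interval 0.74 to 1.28, edgeR quasi-likelihood adjusted p = 1.21e-05), a 2.01-fold higher level. For BDKRB2 it was 1.48 (SE 0.195, interval 1.06 to 1.90, edgeR adjusted p = 2.31e-05), a 2.79-fold higher level. All MLC libraries lay above all SLC libraries for both receptors, as they did for 28.1% of the genes tested. Both differences kept their direction and stayed past the threshold in all 13 other settings, including each library left out in turn, with edgeR or DESeq2 adjusted p of at most 0.0132 for BDKRB1 and 0.000668 for BDKRB2.

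With IL-1β+LOXL2 neither receptor passed the threshold between the layers, against 16.1% of 14085 genes. BDKRB1 was 0.43 higher in MLC on the log2 scale (interval -0.30 to 1.15, edgeR adjusted p = 0.415). BDKRB2 was 0.89 higher (SE 0.265, interval 0.28 to 1.51, edgeR adjusted p = 0.0608), and all its MLC libraries lay above all its SLC libraries, which held for 18% of the genes. Same-numbered libraries of this comparison correlated in their deviations (r = 0.605, 0.206 and 0.168), but so did a pair of different numbers (0.450). With the replicate number as a block, BDKRB2 passed (0.91, edgeR adjusted p = 0.0340), BDKRB1 did not (0.50, edgeR adjusted p = 0.108), and the number of genes past the threshold went from 2268 to 3887. BDKRB2 also passed by the DESeq2 Wald test (adjusted p = 0.0251) and without SLC with LOXL2 replicate 2 (1.13, edgeR adjusted p = 0.0290). It did not pass without SLC with LOXL2 replicate 3, nor without any 1 MLC library with LOXL2 (0.74 to 0.99, edgeR adjusted p = 0.118 to 0.205). Without SLC with LOXL2 replicate 1, the library that stood apart, it was 0.72 higher (edgeR adjusted p = 0.0574), and BDKRB1 was 0.16 higher (edgeR adjusted p = 0.601).

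**Figure D2:**
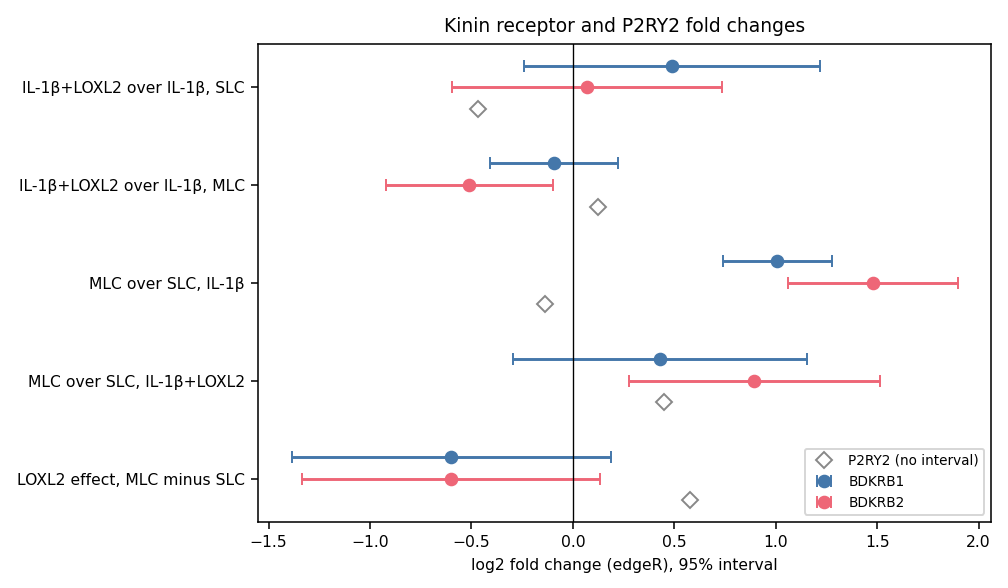
Log2 fold changes (horizontal axis) of BDKRB1, BDKRB2 and P2RY2 in 5 comparisons (rows), with points for the edgeR estimate and bars for its 95% interval. P2RY2 was picked on these contrasts and has no interval. Only the intervals of both kinin receptors for MLC over SLC under IL-1β, and those of BDKRB2 for LOXL2 in MLC and for MLC over SLC with LOXL2, leave out 0.

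Within SLC, LOXL2 moved neither kinin receptor beyond the spread of the libraries, in a comparison where 0% of 14103 genes passed the adjusted threshold and 6108 of them, 43.3%, had an unadjusted p under 0.05 by edgeR. The DESeq2 Wald test called 4140 genes there and neither receptor. The log2 change of BDKRB1 was 0.49 (interval -0.24 to 1.22, edgeR adjusted p = 0.248) and that of BDKRB2 was 0.070 (interval -0.59 to 0.73, edgeR adjusted p = 0.861). BDKRB1 rose when SLC with LOXL2 replicate 1 was left out (0.76, SE 0.196, edgeR adjusted p = 0.00582), in a fit where 8849 genes passed. BDKRB2 without that library was 0.25 higher (edgeR adjusted p = 0.434), and its sign turned in 3 of the fits that left out another library. The difference from 0 to 8849 genes rests on 1 library, so the call on BDKRB1 in SLC depends on it. Without SLC with LOXL2 replicate 2, at 12.4 CPM the highest of its group, BDKRB1 changed by 0.094 (edgeR adjusted p = 0.789).

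Within MLC, 21.6% of 13664 genes passed, and neither kinin receptor was among them. BDKRB2 was lower with LOXL2 by log2 -0.51 (SE 0.189, interval -0.92 to -0.10, edgeR adjusted p = 0.0686), in all 3 libraries against all 3. Groups did not overlap, with LOXL2 lower, in 20.5% of the genes tested. It passed when MLC with LOXL2 replicate 1 was left out (-0.67, edgeR adjusted p = 0.0101), and 6653 genes then did. Without any other 1 library BDKRB2 did not pass, at -0.61 to -0.41 (edgeR adjusted p = 0.0737 to 0.222). Nor did it pass in the fit on all 12 libraries (edgeR adjusted p = 0.191), though it did with the replicate number as a block (edgeR adjusted p = 0.0419). BDKRB1 changed by -0.092 (SE 0.145, interval -0.41 to 0.22, edgeR adjusted p = 0.666).

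The difference between the LOXL2 effects in MLC and SLC was tested for both kinin receptors as an interaction over all 12 libraries, where 0% of 14534 genes passed by edgeR and 328 of them, 2.26%, had an unadjusted p under 0.05, and 0 passed by the DESeq2 Wald test. It was -0.60 for BDKRB1 (interval -1.39 to 0.19) and -0.60 for BDKRB2 (interval -1.34 to 0.14), each with an edgeR adjusted p of 0.959. Without SLC with LOXL2 replicate 1 the values were -0.87 (edgeR adjusted p = 0.0995) and -0.78 (edgeR adjusted p = 0.140). Without SLC with LOXL2 replicate 2 they were -0.20 and -0.35 (edgeR adjusted p = 0.9999 for each).

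The balance between both receptors was read from the ratio of their counts in each library, which does not depend on the library total. The ratio is one of counts and not of transcripts, since lengths and the shared stretch were not corrected for. BDKRB1 made up 69.4, 74.0 and 74.7% of the kinin receptor counts in SLC with IL-1β and 74.0, 80 and 77.5% with IL-1β+LOXL2. In MLC it made up 64.2, 70.6 and 61.7% with IL-1β and 64.5, 73.5 and 77.0% with IL-1β+LOXL2. The exact 95% binomial intervals, which cover counting error only, spanned 62.2 to 76.1% for the first of these and 55.6 to 67.5% for the lowest. The mean count ratio was 2.69 ± 0.364, 3.43 ± 0.579, 1.94 ± 0.414 and 2.65 ± 0.779 in the same order of groups (SD, n = 3). The log2 ratio was 0.44 lower in MLC than in SLC at the same treatment (exact permutation test, two-sided p = 0.035, adjusted over 3 tests p = 0.0525) and 0.39 higher with LOXL2 in the same layer (exact permutation p = 0.055, adjusted p = 0.055). Both tests were added after the data were seen, so their p-values are no independent support for the differences. The share was lower in MLC in each of the 3 same-numbered pairs of LOXL2 libraries. With layer labels exchanged only within those pairs, and freely under IL-1β, the exact permutation p of the layer difference was 0.0375, the smallest possible being 0.0125. For those 3 pairs alone the exact permutation p was 0.25, the lowest that 3 pairs can give. Leaving out 1 library moved the exact permutation p of the layer difference between 0.015 and 0.095, the highest without SLC with LOXL2 replicate 2, and that of the treatment difference between 0.03 and 0.145, the highest without MLC with LOXL2 replicate 3.

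**Figure D3:**
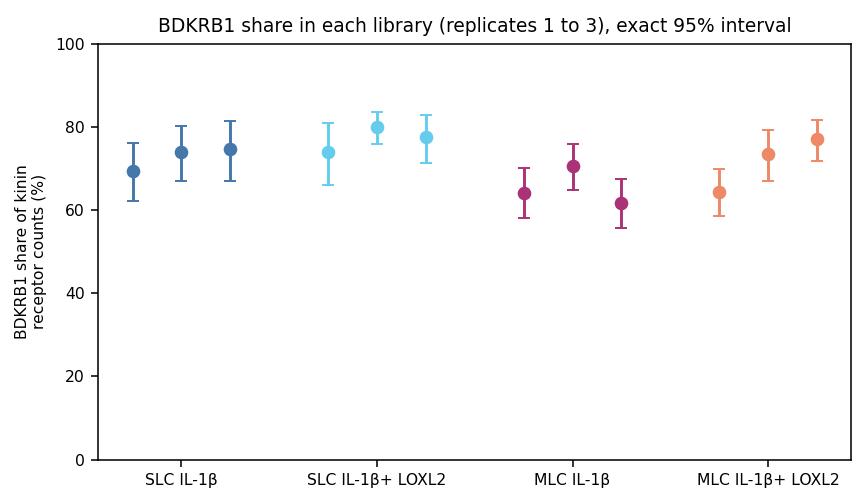
BDKRB1 counts as a percentage of BDKRB1 plus BDKRB2 counts (vertical axis, from 0) in each of the 12 libraries, grouped by layer and treatment, with exact 95% binomial intervals as bars. The shares run from 61.7 to 80%, and libraries of SLC and MLC overlap.

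P2RY2, the nucleotide receptor, was the best counted of the 6 genes, with 328 to 601 counts per library. It lies on chromosome 15 from 30281958 to 30302115. In SLC it had 26.5, 26.6 and 25.7 CPM with IL-1β and 18.8, 19.7 and 19.0 with IL-1β+LOXL2. In MLC it had 25.3, 24.3 and 21.8 CPM with IL-1β and 25.6, 26.0 and 26.3 with IL-1β+LOXL2. The SLC libraries with LOXL2 were the lowest of all 12, and the other 3 groups lay within 21.8 to 26.6 CPM. The means were 26.3 ± 0.543, 19.2 ± 0.483, 23.8 ± 1.82 and 26.0 ± 0.357 CPM (SD, n = 3).

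P2RY2 was chosen on the difference between its LOXL2 effects, so the following log2 changes carry no test. LOXL2 went with a change of -0.47 in SLC and 0.12 in MLC, an MLC effect that was 0.58 above the SLC effect. MLC differed from SLC by -0.14 under IL-1β, where all MLC libraries lay below all SLC libraries as they did for 27.8% of the genes tested, and by 0.45 with LOXL2, where all lay above as they did for 18% of the genes. All 3 SLC libraries with LOXL2 lay below all 3 without it, which held for 23.5% of the genes tested in SLC, and in MLC all 3 with LOXL2 lay above all 3 without it, which held for 21% of the genes there. Both at once in opposite directions was found in 18 of 13416 genes tested in both layers, or 0.134%. P2RY2 is among them and was picked for its unequal effect in these values, so the share is no support for it. The absence of overlap was the same within each layer under 5 ways of scaling the libraries and between layers under the 3 that were run there. Across every library left out and every other setting, the SLC change lay between -0.49 and -0.45, the MLC change between 0.064 and 0.17, and their difference between 0.52 and 0.63. Without SLC with LOXL2 replicate 1 the SLC change was -0.46 and the difference 0.57. These ranges describe the values on which P2RY2 was picked and lend its difference no support.

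Across the 12 libraries, with each layer's mean removed, BDKRB1 and BDKRB2 had a Pearson r of 0.49 in log2 CPM. P2RY2 had -0.32 with BDKRB1 and -0.20 with BDKRB2. The libraries share treatments and a depth, so these are descriptions. Of 12274 genes searched, those most like BDKRB1 were TRPM4, a calcium-activated cation channel (r = 0.975), RBM5, an RNA-binding splicing regulator (0.959), and NFKBIA, the inhibitor that NF-κB itself induces (0.937). Leaving out the 2 libraries in which BDKRB1 was farthest from its median, SLC with LOXL2 replicates 1 and 2, gave 0.942, 0.916 and 0.842 over 10 libraries. Those most like BDKRB2 were HIC2, SIRPA and CCDC138, at 0.866, 0.857 and 0.851, and those most like P2RY2 were EHHADH, an enzyme of peroxisomal fatty acid oxidation, ETFBKMT and FGL2, at 0.884, 0.852 and 0.851. Over 10 libraries chosen in the same way these became 0.846, 0.798 and 0.878 for BDKRB2 and 0.798, 0.846 and 0.745 for P2RY2.

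Around these genes, 103 other genes of the neurotrophin, kinin and nucleotide pathways and other pain mediators were listed, and 92 were in the count tables. ACE, KLK1, P2RY11, CALCA and 7 others were not analysed here. The neurotrophin NTF4 had 4 and 7 counts in the SLC groups and 28 and 30 in the MLC groups. NTRK2, the BDNF receptor, had 31 and 23 counts in the 2 SLC groups and 1 and 5 in MLC. NTRK3, the NTF3 receptor, was lower in MLC under IL-1β by log2 -2.49 (edgeR adjusted p = 9.15e-07), from a mean of 4.46 ± 0.580 to 0.786 ± 0.0119 CPM, and so was SORT1, the coreceptor of NGFR for uncleaved neurotrophins, by -1.48 (edgeR adjusted p = 2.55e-10). MMP3, a protease that can cleave neurotrophin precursors, was higher in MLC by 5.19 (edgeR adjusted p = 8.39e-11).

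Among genes that control kinin release, PRCP and SERPING1 were tested between the layers under IL-1β and differed by -0.14 (edgeR adjusted p = 0.102) and -0.11 (edgeR adjusted p = 0.295). Of 7 kininases, which break kinins down, 4 were higher and 1 was lower in MLC. Of all genes, 46.9% passed in either direction and 24.2% were higher. MME is among the 4 and passed the filter on low counts only through MLC, so it does not count as a call. The others higher were ECE1, CPM and THOP1. Carboxypeptidase M (the gene CPM), which removes the last arginine of bradykinin and so yields the ligand of BDKRB1, was 1.31 higher in MLC (edgeR adjusted p = 1.19e-06), and the peptidase NLN (neurolysin) was lower, by log2 -0.50 (edgeR adjusted p = 0.000369). CPD, another carboxypeptidase, differed by -0.17 (edgeR adjusted p = 0.0641). KNG1, the precursor of bradykinin, had 4 and 6 counts in the SLC groups and 44 and 39 in the MLC groups, and MME, the peptidase neprilysin, had 21 and 10 in SLC and 121 and 156 in MLC. Both passed the filter on low counts between layers, where they did, only through MLC, where they were higher, so their counts are given with no test. In MLC with LOXL2, SERPING1, the inhibitor of the kinin-releasing protease kallikrein, rose by 0.61 (edgeR adjusted p = 0.0190), and CPD fell by 0.73 (edgeR adjusted p = 0.0190). Of the other P2Y receptors, P2RY1 was tested in both layers and its LOXL2 change was -0.24 in SLC (edgeR adjusted p = 0.473) and -0.70 in MLC (edgeR adjusted p = 0.146), where P2RY2 changed by -0.47 and 0.12. PANX1, an ATP release channel, fell with LOXL2 in MLC by 0.73 (edgeR adjusted p = 0.0267). P2RX7, an ATP-gated channel, had 53 counts in MLC with IL-1β and 22 with IL-1β+LOXL2, and it too passed the filter only through the higher group, so it is given with no test.

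Counted over the whole list, 57 pathway genes were tested for LOXL2 in MLC, of which 3 rose and 11 fell, with a median log2 change of -0.16 against 0.0079 over all genes tested. In SLC 0 of 59 passed by edgeR, where 22 had an unadjusted p under 0.05 and 14 passed by the DESeq2 Wald test, with a median of -0.24 against 0.013. Between layers under IL-1β 22 were higher and 12 lower in MLC of 58 tested, with a median of 0.14 against -0.0069, and with LOXL2 13 were higher and 7 lower of 58, with a median of 0.11 against -0.031. These counts include genes such as KNG1, MME and P2RX7 that passed the filter only through the group where they were higher. They stand beside the 21.6, 0, 46.9 and 16.1% of all genes given above. The SLC result rested on 1 library: without SLC with LOXL2 replicate 1, 38 of the 59 genes passed by edgeR, as did 8849 of all 14334 genes tested. Between layers with LOXL2, 31 of 58 passed without that library, as did 4679 of all 14234, and 10 passed without SLC or MLC with LOXL2 replicate 3. The MLC calls were fragile: no pathway gene passed without MLC with IL-1β replicate 1 or 3 or without MLC with LOXL2 replicate 2, nor in a fit over all 12 libraries. The LOXL2 changes of all genes also moved with the length of the gene on the chromosome (Spearman -0.493 in SLC and -0.488 in MLC, across genes, which are not independent). With that trend removed, 8 of the 14 MLC calls remained, SERPING1, CPD and PANX1 among them, and the list medians were -0.086 in SLC and -0.056 in MLC. Under IL-1β alone, 32 of the 34 layer calls remained in the same way.

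**Figure D4:**
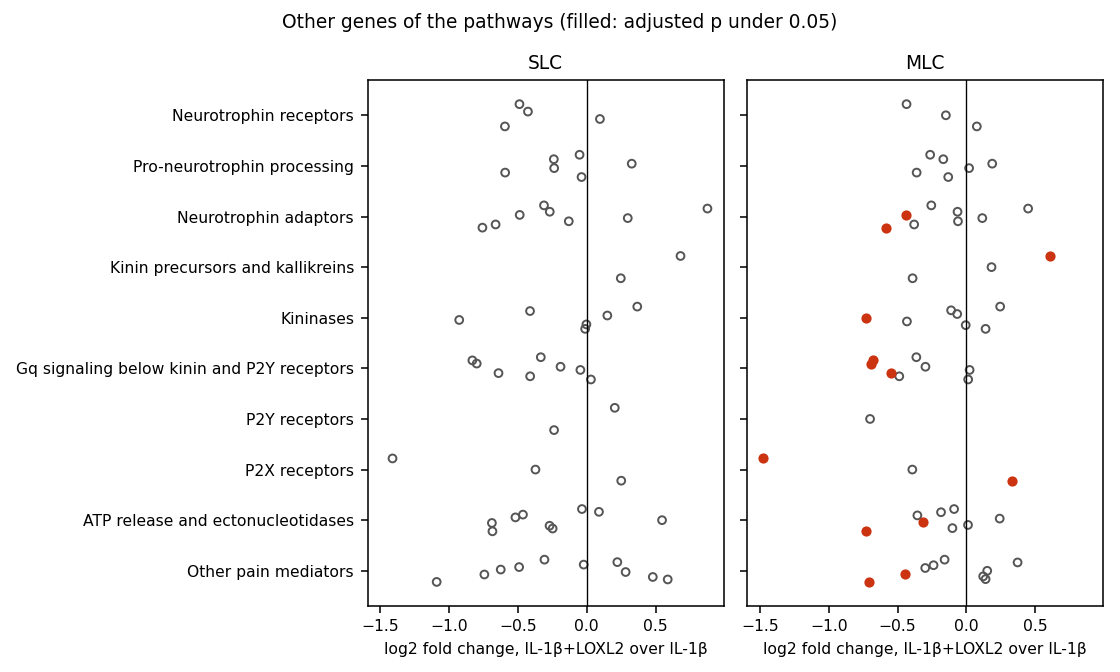
Log2 fold change with LOXL2 (horizontal axis) in SLC (left) and MLC (right) of the other pathway genes, 1 point per gene, arranged by list, without the neurotrophin ligands. Filled points passed an adjusted p of 0.05 by edgeR. In SLC no point is filled, and in MLC 11 of the filled points lie to the left of 0.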

How the data were processed

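RNA was poly-T selected and sequenced, and per the labels the submitters' notes name HISAT2 for alignment and featureCounts for counting. The strand setting is not given in the sources used here. The authors deposited raw counts per gene, 1 table for each layer and not normalized. From these, counts scaled to a common total (CPM) were computed on library totals scaled by the trimmed mean of M-values over 12 libraries. Comparisons used edgeR 4.0.16 quasi-likelihood tests (R 4.3.3) on the counts, with filterByExpr (minimum count 10, minimum total 15) and Benjamini-Hochberg adjustment over all genes tested at 0.05. Each comparison of 2 groups used its 6 libraries, and the interaction used all 12. The study used DESeq2, and its Wald test (1.42.0) was an alternative. The other alternatives were size factors, low-count filters, a replicate block, a fit on all libraries, removal of a gene-span trend and leaving out each library.

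Members and gene lists were chosen with earlier results of these data known. Named are the 6 members, list genes past the threshold in a LOXL2 comparison or with a clear role (at most 12 a list), and the 3 genes most similar to each well-counted member. Exact permutation tests (BDNF and the kinin receptor ratio) were added after the data were seen. With 3 libraries against 3, an exact permutation test of 1 gene cannot give a p below 0.1. Ratios of low counts have exact conditional 95% intervals. Replicate numbers were shared across groups. Same-numbered libraries of the LOXL2 groups of both layers correlated in their deviations from the group means (r = 0.605, 0.206 and 0.168, all above 0.1), so the blocked values are given there. Differently numbered libraries of those groups gave r from -0.566 to 0.450, so the numbers do not establish a pairing. In the other comparisons at least 1 same-numbered pair fell below 0.1. Gene positions are RefSeq's for ARS1.2. Of 28910 gene rows, 28884 carry a RefSeq symbol. All columns of the tables were used. Some listed genes are not reported here.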

Additional observations from a re-analysis of the deposited data

Results flagged for a closer look

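The LOXL2 effect on P2RY2 in MLC was 0.58 above that in SLC on the log2 scale. It drew attention because the effect differed between the layers. All SLC libraries with LOXL2 lay below those without it, and all MLC libraries with LOXL2 lay above those without it. The difference was not tested, since P2RY2 was picked for it.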

How the results depend on the processing

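The layer differences of BDKRB1 and BDKRB2 under IL-1β kept direction and call in all 13 alternatives. The directions of P2RY2 were kept in all settings, which only describes the values it was picked on. Signs turned for BDKRB2 with LOXL2 in SLC, to -0.0030, -0.052 and -0.17 without SLC IL-1β replicate 2, SLC IL-1β replicate 3 and SLC LOXL2 replicate 2, and for BDKRB1 in MLC, to 0.018 without MLC LOXL2 replicate 1, all without passing the threshold. Without 1 library these changes ranged from -0.17 to 0.27 and from -0.20 to 0.018.

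Counts of genes past the threshold depended on the fit. With LOXL2 in SLC the count was 0 by edgeR, 4140 by the DESeq2 Wald test and 5965 in a fit on all 12 libraries, and it ranged from 0 to 8849 when 1 library was left out. In MLC it was 2958, then 0 in the fit on all libraries and 0 to 6653 without 1 library. Between layers under IL-1β it was 6548, then 3715 on all libraries and 5410 to 6625 without 1. With LOXL2 it was 2268, then 4199 on all libraries and 1140 to 4679 without 1, and for the interaction it was 0, with 0 to 1 without 1. The cause was not tested. The replicate block gave 3887 genes for the layers with LOXL2. Elsewhere the same-numbered libraries did not all correlate. There the block gave 4053 genes for LOXL2 in MLC, with BDKRB2 past the threshold (-0.52, edgeR adjusted p = 0.0419), and changed no other call of the kinin receptors. In the fit on all 12 libraries BDKRB2 passed between the layers with LOXL2 (edgeR adjusted p = 0.0158). With no filter on low counts, the log2 change of BDNF from SLC to MLC was -3.34 under IL-1β and -3.07 with LOXL2. These fitted values depend on the prior count. They are given with no test, since BDNF was barely counted and almost only in SLC. Depth limits BDNF, NTF3 and NGFR, for which changes with LOXL2 were not detectable.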
